A study of Homo sapiens with 20 samples.

Results

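The 32 genes described here encode the steps by which a cell takes up glucose, splits it to pyruvate, reduces pyruvate to lactate and exports it, together with regulators of that route and genes known to respond to low oxygen. They were chosen by symbol, and 32 of the 17113 protein-coding genes in the count table were members. All 32 reached the low-count filter among 15130 genes tested. Of these, 28 lay at or above the filter limit of 0.407 CPM (counts per M counts of the library) in every cell library. SLC2A3 was below it in 5 cell libraries, CA9 in 4, BNIP3 in 3 and LDHB in 1.

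Glycolysis converts glucose to pyruvate in the cytosol, and lactate dehydrogenase reduces pyruvate to lactate, which leaves the cell through monocarboxylate transporters. Colorectal cancers, like many tumours, are known for high glucose uptake and lactate release even where oxygen is present. When oxygen falls, the transcription factor HIF1 escapes hydroxylation and degradation and binds hypoxia response elements near many of these genes, whose core letters are ACGTG.

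Total cell RNA and RNA of released extracellular vesicles, small membrane-enclosed particles, were sequenced for 10 untreated colorectal adenocarcinoma lines, COLO-201, HCT 116, HT-29, LoVo, LS1034, LS123, LS513, SNU-C1, SW480 and WiDr. The series asks whether vesicle transcriptomes mirror those of the cells that made them. Every line grew in RPMI-1640 or DMEM with 10% fetal bovine serum, and the labels do not say which line had which medium. There was 1 library per line and compartment, so the cell line was the replicate (n = 10), and p-values measure the spread between lines and not between cultures of a line. Cell libraries came from a stranded kit that removes ribosomal RNA and vesicle libraries from a low-input SMART-Seq and Nextera kit, so compartment and kit cannot be told apart in any comparison below. As in any bulk RNA, fewer vesicles or cells that carry a transcript and fewer copies in each cannot be told apart either.

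Cell libraries held 24.8 to 37.4 M counts and vesicle libraries 1.75 to 24.4 M. A count of 0 allows up to 3 counts, which is 0.0802 to 0.121 CPM in cells and 0.123 to 1.72 CPM in vesicles, for counting error only. Vesicle libraries also held reads on 2077 genes that had no more than 10 counts in any cell library. Scaled by gene length and GC content, such background was estimated at 1.76 to 44.4% of vesicle counts and 0.0303 to 0.154% of cell counts. It was 1.76 to 6.33% in COLO-201, HT-29, LS513, HCT 116 and SW480, called the 5 lower-background lines, and 16.6 to 44.4% in LoVo, LS1034, SNU-C1, WiDr and LS123. The summed level of 11 colon epithelial markers was 3018 to 19382 CPM in cells and 3088 to 17752 CPM in vesicles. Summed markers of other sources mostly ranged higher in vesicles, at 3.25 to 69.2 CPM for 4 leukocyte genes (0.0303 to 6.54 in cells), 3.07 to 342 CPM for 6 erythroid and platelet genes (0.151 to 8.48), 22.4 to 466 CPM for 6 fibroblast and endothelial genes (0.444 to 12.3) and 11.3 to 676 CPM for 5 hepatocyte and serum protein genes (0.134 to 763). No marker was at 0 in all cell libraries, and the part of these sources in the results was not tested. Cell profiles of HT-29 and WiDr, which are known to derive from 1 tumour, were close (correlation of deviations from the mean line 0.805). LS123 and HCT 116, for which the labels give no relation, were as close (0.804), against 0.328 for the next pair.

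SLC2A1 and SLC16A1, a glucose and a lactate transporter, fell the most in vesicles, by 3.0 and 3.47 on the log2 scale, and HK2 and VEGFA fell by 1.92 and 1.26 (n = 10 lines). GAPDH, TPI1, ALDOA and LDHB, abundant enzymes of the pathway, had log2 fold changes of -0.36 to 0.19 that did not pass the test. With edgeR's quasi-likelihood test and Benjamini-Hochberg adjustment over all genes, 15 of 32 members (46.9%) fell in vesicles and 0 rose, against 28.1% of the 15130 genes tested that fell and 28.6% that rose. At an unadjusted p under 0.05, 1 member was higher and 16 were lower, which was not counted over all genes. DESeq2's test called 3 members higher and 8 lower, beside 6264 higher and 3151 lower (20.8%) of the 15130 genes. The 3 were SLC2A3, BNIP3 and ANKRD37, of which SLC2A3 and BNIP3 were below the filter limit in 5 and 3 cell libraries. The members are well expressed genes, and among the 10024 genes averaging 10 CPM or more in cells 42.2% fell and 5.29% rose, close to the members' share. Among the 28 members at the filter limit in every cell library 15 fell (53.6%), beside 42.1% lower and 6.92% higher of the 10064 such genes. The median log2 fold change, vesicle over cell, was -0.56 for the members, 0.01 for all genes tested and -0.53 for genes of at least 10 CPM. After subtraction of the estimated background, 5 of 31 members were lower and 1 was higher, beside 19.0% and 15.7% of 12895 genes. In the 5 lower-background lines alone, 7 of 32 were lower and 1 was higher, beside 19.0% and 19.5% of 14793 genes. Cell and vesicle levels overlapped over the 10 lines for all 32 members, and 6 members were lower in vesicles in each of the 10 lines. With library-size scaling 3 were, SLC2A1, HK2 and SLC16A1, while PKM was lower in 9 lines and PFKL and VEGFA in 8. Overlap and agreement of lines were not counted over all genes, so these counts describe the members only.

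The count of 15 depended on the TMM scaling, the filter, the block and the lines used, and so did the share of all genes that fell. The member count was 8 with DESeq2 size factors or library size alone and 3 with upper-quartile scaling. These settings moved the median of all genes from 0.01 to 0.38, 0.48 and 0.76 on the log2 scale. They moved the share of all genes that fell from 28.1% to 18.5%, 16.3% and 11.6%. Without WiDr and LS123, 1 line of each close pair, the member count was 9, beside 25.2% of all genes. Without the block it was 9, beside 22.7%. With at least 1 CPM in 10 libraries it was 5, beside 18.7%, and 4 in a fit of genes at the filter limit in every cell library, beside 20.8%. Without LoVo the member count was 5 of 32, beside 15.8% of all genes, whose median moved to 0.35. The 10 calls lost were HK1, GPI, PFKL, PFKM, PFKP, PGK1, ENO1, PKM, LDHA and PDK3. Omission of COLO-201, LS1034 or SNU-C1 ended the calls of ENO1, LDHA and PDK3, of HT-29 those of LDHA and PDK3, and of WiDr or LS123 those of GPI, ENO1 and LDHA. SLC2A1, SLC16A1 and HK2 were lower in vesicles in 21 of 21 alternative settings, and VEGFA in 20 of 21.

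**Figure D1:**
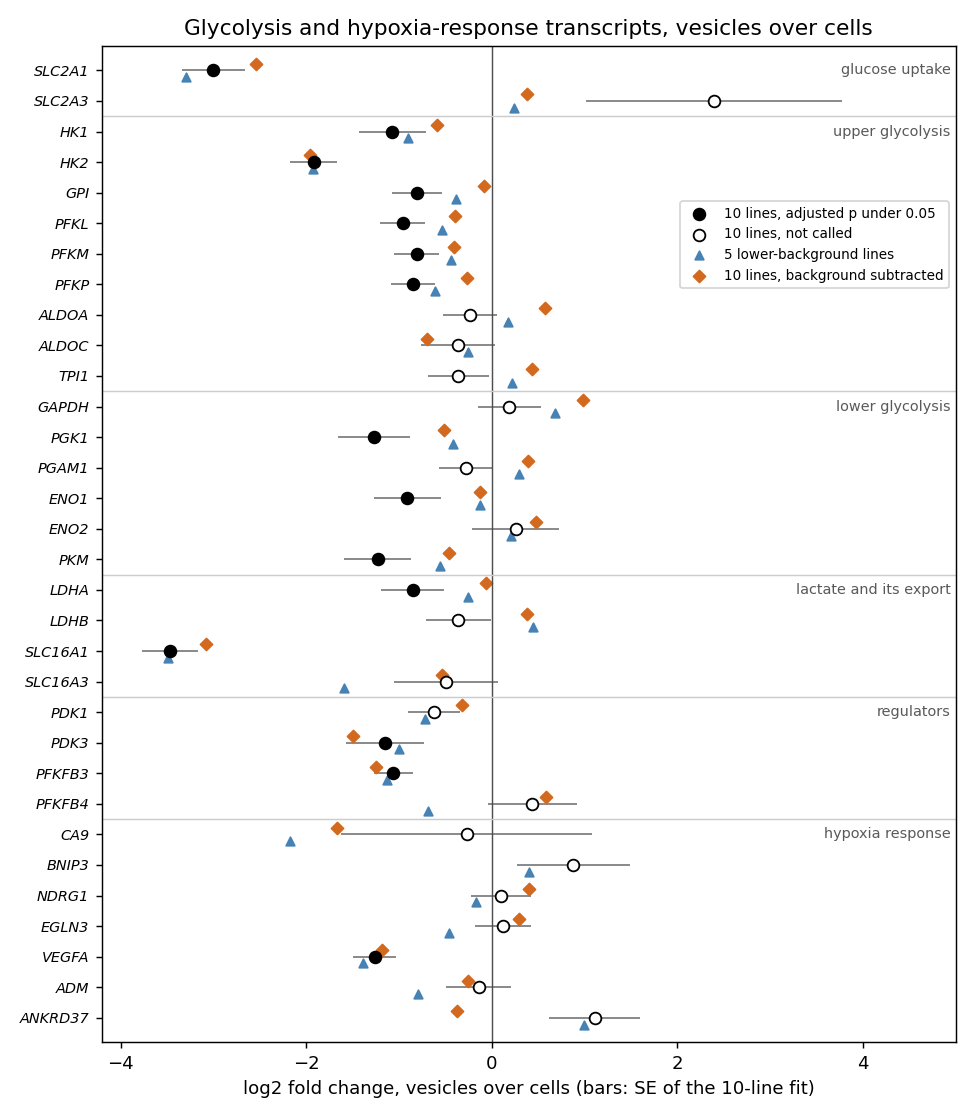
Log2 fold change of each member in vesicles over cells (x axis), ordered by role. Circles are the fit over 10 lines with its SE, filled where the adjusted p is under 0.05; triangles are the 5 lower-background lines and diamonds the fit after background subtraction. SLC2A1, SLC16A1, HK2 and VEGFA lie left of 0 under all 3 fits, while enzymes such as ENO1 and LDHA move to near 0 in the other fits.

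SLC2A1 encodes GLUT1, the main basal glucose transporter of most cells. Its level in cells was 102 CPM at the lowest (HCT 116), 545 at the median and 1661 at the highest (SW480). In vesicles it was 24.7 CPM (LS513), 40.6 and 143 (SW480). Vesicle levels lay below cell levels in 10 of 10 lines, although the ranges overlapped because HCT 116 and LS123 cells held only 102 and 103 CPM. The log2 fold change was -3.0 (SE 0.34, adjusted p = 5.83e-06), with -2.54 after background subtraction and -3.30 in the 5 lower-background lines. HT-29 and SW480 had the 2 highest levels in both compartments.

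SLC2A3 encodes GLUT3, a transporter of high glucose affinity best known in neurons. It was expressed in LS1034 and SW480 cells at 709 and 1748 CPM and was at most 4.28 CPM in the other 8 lines, with 0 counts in HT-29. Vesicles of LS1034 and SW480 held 78.7 and 216 CPM. In the other 8 lines vesicle levels were 0.22 to 24.5 CPM, or 0.15 to 1.7 times the estimated background. The log2 fold change over all lines was 2.40 (SE 1.38, adjusted p = 0.153), and 0.24 in the 5 lower-background lines. DESeq2's test alone called SLC2A3 higher (3.32, adjusted p = 0.0014). The positive sign is opposite to that of LS1034 and SW480, the 2 expressing lines, where vesicles were lower than cells.

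The upper part of the pathway holds hexokinase, which traps glucose as glucose 6-phosphate, glucose-6-phosphate isomerase (GPI), phosphofructokinase, aldolase and triosephosphate isomerase (TPI1). In this group 6 of 9 members fell in the 10-line fit, and 1 of 9, HK2, fell after background subtraction and in the 5 lower-background lines. The shares of all genes were 28.1% (42.2% at 10 CPM or more in cells), 19.0% and 19.0%. HK2, the inducible hexokinase of many tumours, was at 32.2 CPM (COLO-201), 90.3 at the median and 153 (SW480) in cells. Vesicles held 6.58 (COLO-201), 25.2 and 40.2 CPM (SW480). COLO-201 was lowest and SW480 highest in both compartments, and vesicles were lower in 10 of 10 lines. The log2 fold change of HK2 was -1.92 (SE 0.25, adjusted p = 1.88e-05), -1.96 after background subtraction and -1.93 in the 5 lower-background lines.

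HK1, the widely expressed hexokinase, was at 57.2 to 273 CPM in the cells of 9 lines and at 1.31 CPM (25 counts) in LS513. LS513 vesicles also had the lowest level, 8.48 CPM, where 5.34 CPM was expected from background, against 26.9 to 85.0 CPM in the vesicles of the other 9 lines. LS513 cells thus held HK2 with almost no HK1, and the log2 ratio of HK2 to HK1 counts was 6.59 there. Over all lines HK1 was lower in vesicles by the 10-line fit (-1.07, SE 0.36, adjusted p = 0.0192), a call that was lost after background subtraction (-0.59, adjusted p = 0.144) and in the 5 lower-background lines (-0.90, adjusted p = 0.276).

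The 3 phosphofructokinase subunits, PFKL (liver type), PFKM (muscle type) and PFKP (platelet type), form the tetramers that commit sugar to glycolysis. Their log2 fold changes were -0.96 (adjusted p = 0.00366), -0.81 (0.00865) and -0.85 (0.00745), and GPI stood at -0.80 (0.0218). After background subtraction the same 4 genes ranged from -0.41 to -0.08 and none passed the threshold. From 1.79% (GPI) to 10.7% (PFKM) of their vesicle counts were expected from background. The proportions among the subunits differed between lines more than between compartments. The log2 ratio of PFKP to PFKL counts ran from -2.33 to 1.92 in cells and from -1.86 to 1.18 in vesicles, and the mean difference within a line was 0.12 (SD 0.41, exact p = 0.383 over 10 lines). ALDOA, the main aldolase, and TPI1 stayed at -0.23 and -0.36, not past the threshold. ALDOC, the brain-type aldolase and a known hypoxia-responsive gene, was at 157 CPM in HT-29 cells and at 2.52 to 50.6 CPM in the other 9 lines, with a log2 fold change of -0.36 (SE 0.40).

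In the lower part, glyceraldehyde-3-phosphate dehydrogenase (GAPDH), phosphoglycerate kinase (PGK1), phosphoglycerate mutase (PGAM1), enolase (ENO1, ENO2) and pyruvate kinase (PKM) convert triose phosphates to pyruvate. Here 3 of 6 fell in the 10-line fit, a share near the 42.2% of genes of at least 10 CPM, PGK1 at -1.27 (adjusted p = 0.0115), PKM at -1.23 (0.00847) and ENO1 at -0.91 (0.0416). None of the 3 passed after background subtraction, with -0.51, -0.46 and -0.13. Of their vesicle counts only 0.276%, 0.465% and 0.193% were expected from background. The subtracted counts were filtered and TMM scaled anew, and the part of that step in the shift was not tested. PKM was lower in vesicles in 10 of 10 lines (9 with library-size scaling) and had the narrowest spread in cells, 1394 CPM (LoVo) to 3482 CPM (HT-29).

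GAPDH was the member that passed as higher after background subtraction and in the 5 lower-background lines. Its level in cells was 1617 CPM (SNU-C1) at the lowest, 2787 at the median and 5235 (SW480) at the highest. In vesicles it was 450 CPM (SNU-C1), 3643 and 9593 (SW480). The ranges overlapped widely, with SNU-C1 lowest and SW480 highest in both. The log2 fold change was 0.19 (SE 0.34, adjusted p = 0.659) over 10 lines, 0.98 (adjusted p = 0.0103) after background subtraction and 0.68 (adjusted p = 0.0254) in the 5 lower-background lines. GAPDH also passed as higher under library-size and upper-quartile scaling and kept a positive sign in all 21 alternatives. Only 0.0683% of its vesicle counts were expected from background. As a share of all counts it took 0.261% ± 0.123 (SD, n = 10) in cells and 0.424% ± 0.220 in vesicles, higher in the vesicles of 8 lines. Processed pseudogenes of GAPDH and of other glycolytic enzymes are known to be numerous, and how reads on such copies were assigned is not given in the sources used here.

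Per exonic length, GAPDH was the most abundant member in both compartments, with a median of 3094 TPM (CPM computed after division by exonic length) in cells and 4294 TPM in vesicles. LDHB (1724 TPM), TPI1 (1523), ENO1 (1374) and LDHA (1265) followed in cells. In vesicles LDHB (1561 TPM), TPI1 (1543) and ALDOA (1171) followed, and ENO1 and LDHA held 796 and 719 TPM. Exonic length was the union of exons over all annotated transcripts, 6210 bases for LDHA and 2983 for LDHB, so this order depends on the annotation. Without division by length, LDHA averaged 2617 CPM in cells and LDHB 1376. The 17 enzymes from hexokinase to lactate dehydrogenase took 1.48% ± 0.579 (SD, n = 10) of cell counts and 1.43% ± 0.627 of vesicle counts, higher in the vesicles of 5 lines. The 4 transporters took 0.111% ± 0.0940 and 0.0193% ± 0.00987, lower in the vesicles of 10 of 10 lines.

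Lactate dehydrogenase is a tetramer of LDHA, known for its HIF1-driven expression, and LDHB. The log2 fold changes were -0.85 (SE 0.34, adjusted p = 0.0461) for LDHA and -0.36 (SE 0.35, adjusted p = 0.403) for LDHB. LDHA moved to -0.06 after background subtraction and new scaling, although only 0.133% of its vesicle counts were expected from background. LDHB was nearly absent from COLO-201, with 12 counts in cells (0.425 CPM) and 3 in vesicles (0.215 CPM, below the expected background of 0.766). The other 9 lines had 281 to 2905 CPM in cells and 90.5 to 2802 CPM in vesicles. The LDHA to LDHB balance of a line was found again in its vesicles. Its log2 ratio ran from -0.42 (LoVo) to 12.62 (COLO-201) in cells and from -1.28 (LS1034) to 12.46 (COLO-201) in vesicles, with Pearson's r = 0.98 and Spearman's rho = 0.92 over the 10 lines, given as a description, with COLO-201 far from the rest. The mean difference within a line was -0.52 (SD 0.68, lower in 8 of 10, exact sign-flip p = 0.041, adjusted over 10 pairs 0.102).

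SLC16A1 and SLC16A3 encode MCT1 and MCT4, the transporters of lactate, of which MCT4 is known as the hypoxia-induced exporter. SLC16A1 was at 9.28 CPM (COLO-201), 447 at the median and 712 (LoVo) in cells. Vesicles held 0.93 (COLO-201), 37.8 and 47.5 CPM (LS123). COLO-201 alone made the ranges overlap, since the other 9 lines had 206 CPM or more in cells and 47.5 CPM or less in vesicles. The log2 fold change of SLC16A1 was -3.47 (SE 0.30, adjusted p = 1.19e-06), the lowest of the 32, with -3.08 and -3.49 in the other 2 fits. In COLO-201 cells SLC16A3 was at 130 CPM, the second highest of the 10 lines.

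SLC16A3 ranged from 5.07 CPM (LoVo) to 216 CPM (LS123) in cells and from 14.4 (LS513) to 55.9 CPM (LS123) in vesicles. It had a log2 fold change of -0.49 (SE 0.56, adjusted p = 0.473) over 10 lines and -1.59 (adjusted p = 0.0107) in the 5 lower-background lines, and 38.1% of its vesicle counts were expected from background. Its exons overlap those of CSNK1D on the opposite strand. The log2 ratio of SLC16A3 to SLC16A1 counts was higher in vesicles in 10 of 10 lines, by 3.05 (SD 2.45, exact two-sided sign-flip p = 0.00195, the smallest that 10 lines can give, adjusted over 10 pairs 0.0195). It was 2.78 (adjusted p = 0.0586) after background subtraction and 3.49 (adjusted p = 0.0781) without WiDr and LS123, so the call was lost in both. In the 5 lower-background lines it was 1.88, from HT-29 (-1.08 in cells and -1.06 in vesicles) to LS513 (-4.89 and -0.80). Of the 5 other lines LS123 shifted least (-0.36 and 0.23). LoVo (-7.13 and -0.59), SNU-C1 (-5.52 and 0.24) and LS1034 (-5.03 and 1.18) shifted more than any lower-background line. Their vesicles held 119, 166 and 250 SLC16A3 counts, of which 76.6, 112 and 160 were expected from background. The part of background in this difference was not tested.

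**Figure D2:**
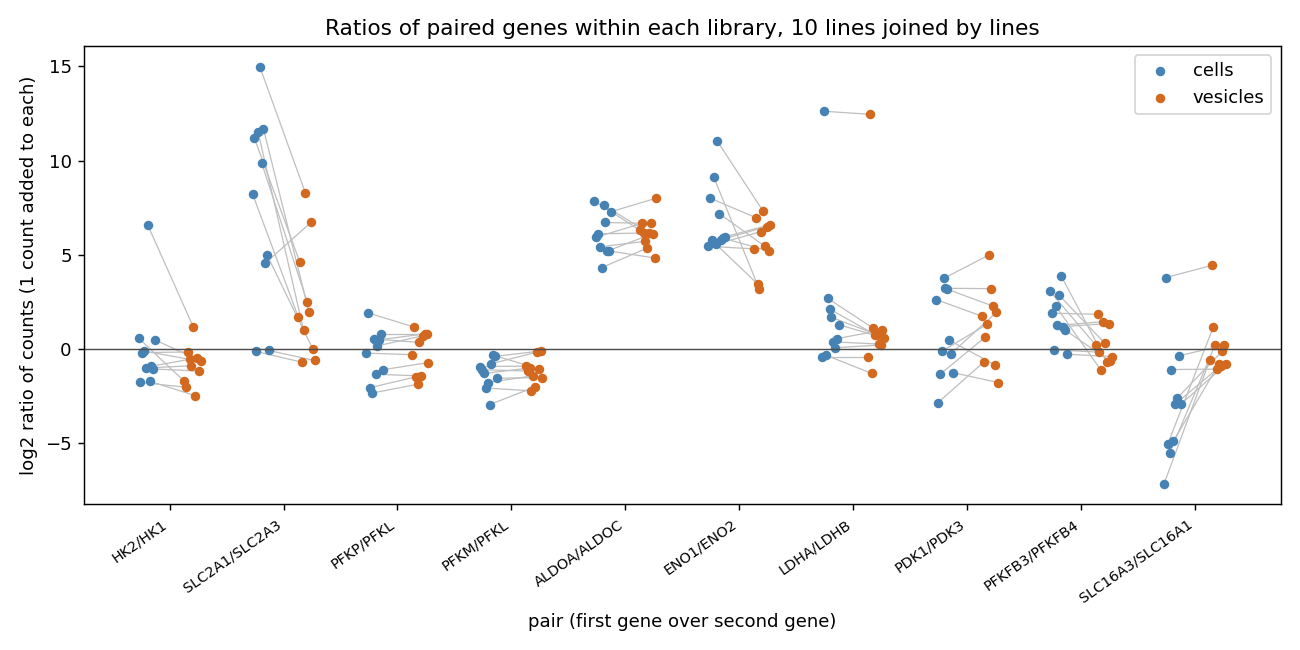
Log2 ratio of the counts of 2 related genes in the same library (y axis, 1 count added to each) for 10 pairs, with cells and vesicles of a line joined. LDHA/LDHB largely keeps the order of the lines (rho = 0.92), while SLC16A3/SLC16A1 lies higher in vesicles in 10 of 10 lines.

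A ratio within a library does not depend on scaling, and 10 such pairs were compared. Beside SLC16A3/SLC16A1, the ratio of SLC2A1 to SLC2A3 was lower in vesicles by 5.13 (mean difference -5.13, SD 4.18, lower in 9 of 10 lines, exact p = 0.00977, adjusted 0.0488), and HCT 116 was the exception. That call did not hold after background subtraction (-3.58) or without any 1 of 9 of the lines (-5.64 to -4.53, HCT 116 being the line whose omission kept it). The other 8 pairs did not pass after adjustment, with adjusted p from 0.102 to 0.920. The PFKFB3 to PFKFB4 ratio had the largest mean difference among them, -1.50 (SD 1.75, adjusted p = 0.102).

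Among the regulators, PDK1 and PDK3 are kinases that shut pyruvate out of the mitochondrial pyruvate dehydrogenase complex, and PFKFB3 and PFKFB4 set the level of fructose 2,6-bisphosphate, the activator of phosphofructokinase. PFKFB3 was at 25.7 CPM (COLO-201), 46.4 and 109 (HT-29) in cells and at 13.1 (COLO-201), 22 and 38.5 CPM (LS123) in vesicles, with overlap, and lower in 9 of 10 lines. It fell by 1.06 on the log2 scale (SE 0.21, adjusted p = 6.41e-04), a call kept in the 5 lower-background lines (-1.13) and not after background subtraction (-1.25, adjusted p = 0.0672). PDK3 ran from 5.16 CPM (WiDr) to 241 CPM (SW480) in cells and from 1.77 (HT-29) to 207 CPM (SW480) in vesicles, with a log2 fold change of -1.15 (adjusted p = 0.0293) that was -1.49 (adjusted p = 0.0167) after background subtraction and -1.0 (adjusted p = 0.139) in the 5 lower-background lines. SW480 held the highest PDK3 level in both compartments. PDK1 at -0.62 (adjusted p = 0.0717) and PFKFB4 at 0.44 (adjusted p = 0.45) did not pass.

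The hypoxia-response genes are read out in many tumours as a sign of low oxygen. VEGFA encodes the main angiogenic growth factor, CA9 a carbonic anhydrase that acidifies the cell's surroundings, ADM the vasodilator adrenomedullin, BNIP3 a mitophagy receptor and EGLN3 an oxygen-sensing prolyl hydroxylase. In this group VEGFA alone fell in the 10-line fit, 1 of 7 (14.3%). The shares were 28.1% of all genes tested and 42.2% of those of at least 10 CPM in cells. After background subtraction 1 of 6 fell (16.7%, beside 19.0% of all genes), again VEGFA. In the 5 lower-background lines VEGFA and CA9 fell, 2 of 7 (28.6%, beside 19.0%). VEGFA was at 27.0 CPM (COLO-201), 97.5 and 185 (LoVo) in cells and at 17.8 (SW480), 41.4 and 65.7 CPM (SNU-C1) in vesicles. The ranges overlapped and vesicles were lower in 10 of 10 lines (8 with library-size scaling). The log2 fold change was -1.26 (SE 0.23, adjusted p = 3.27e-04), -1.18 after background subtraction and -1.39 in the 5 lower-background lines, and upper-quartile scaling ended the call (adjusted p = 0.0582).

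NDRG1, EGLN3 and ADM stood at 0.10 (SE 0.32), 0.12 (SE 0.30) and -0.14 (SE 0.35), and ANKRD37 at 1.11 (SE 0.49, adjusted p = 0.0646). ANKRD37 was higher in the vesicles of 9 lines, 46.4% of its vesicle counts were expected from background, and it moved to -0.37 after subtraction. It passed as higher in 8 of 21 alternatives, among them library-size and upper-quartile scaling. NDRG1 and EGLN3 also passed as higher under upper-quartile scaling alone, while EGLN3 and NDRG1 had negative values (-0.46 and -0.17) in the 5 lower-background lines. COLO-201 had the highest EGLN3 level in cells (100 CPM) and vesicles (83.5 CPM), against at most 63.6 and 31.3 CPM in the other lines.

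BNIP3 split the lines. Cells of LoVo, HCT 116 and LS123 held 39.1, 41.1 and 50.7 CPM, and cells of the other 7 lines 0.37 to 1.0 CPM. Vesicles of LoVo, HCT 116 and LS123 held 24.9, 50.6 and 31.2 CPM, which was 2.24 to 30.7 times the estimated background. Vesicles of the other 7 lines held 0.361 to 5.32 CPM, below the background estimate in each of the 7. BNIP3 had a log2 fold change of 0.88 (SE 0.61, adjusted p = 0.232) over 10 lines and was called higher by DESeq2's test alone. HCT 116 and LS123 are the pair with close cell profiles. CA9 split the lines in another way, with 542 CPM in HT-29 cells, 67.6 in WiDr and 0 to 14.8 CPM in the other 8, including 0 counts in LoVo and LS123. Vesicles of HT-29 and WiDr held 38.2 and 11.7 CPM of CA9, and those of the other 8 lines 0.22 to 13.8 CPM. SNU-C1 vesicles, with 13.8 CPM over an expected background of 7.68, exceeded WiDr vesicles although SNU-C1 cells held 0.400 CPM. The CA9 fold change was -0.27 (SE 1.35) over 10 lines and -2.17 (adjusted p = 0.0163) in the 5 lower-background lines.

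**Figure D3:**
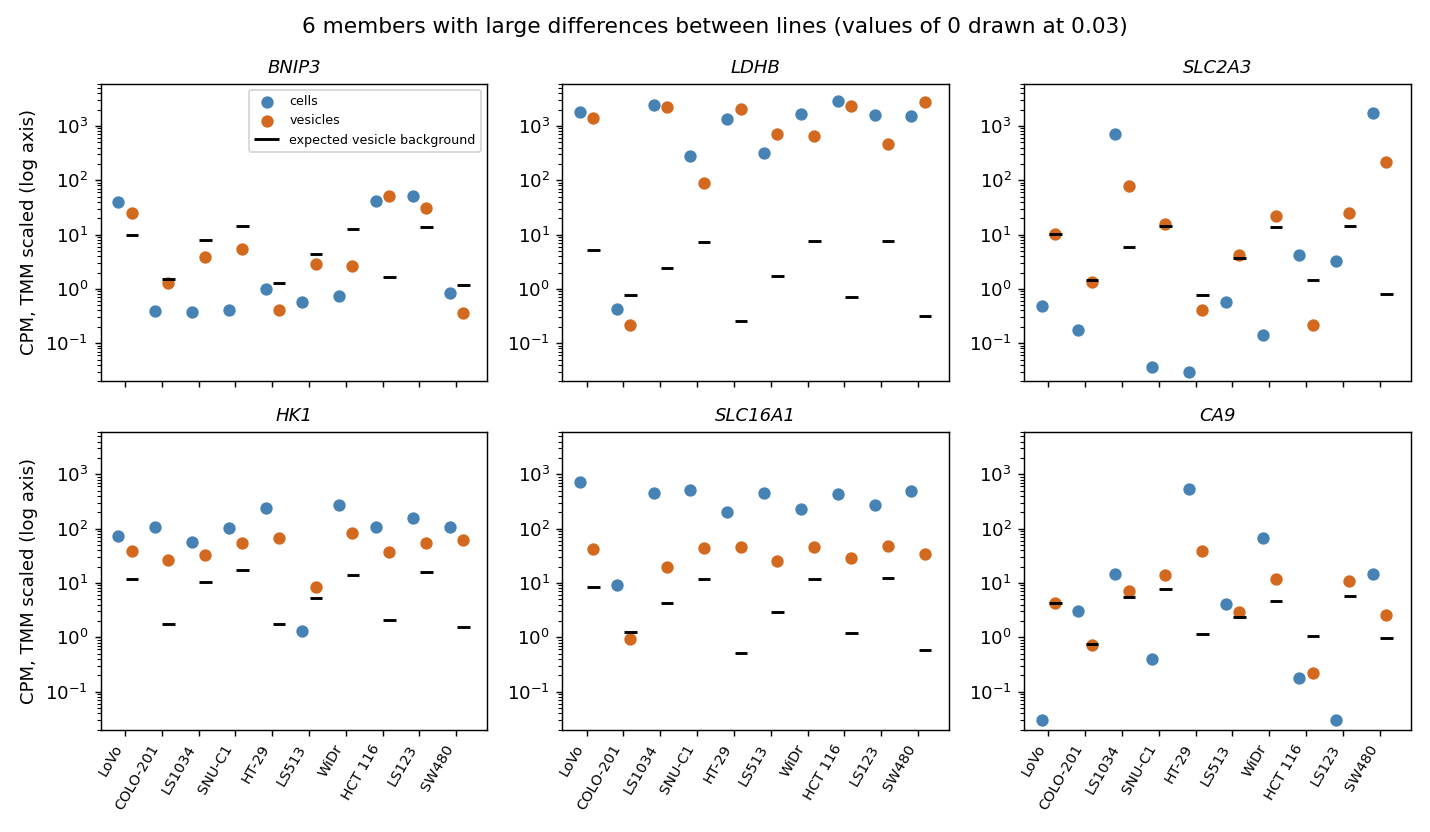
Level of 6 members (y axis, CPM on a log axis) in the cells and vesicles of each of 10 lines, with the expected vesicle background as a bar. BNIP3 was at 39.1 CPM or more in the cells of 3 lines and at 1.0 CPM or less in 7, LDHB and SLC16A1 were lowest in COLO-201, and HK1 was lowest in LS513.

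The promoters of 4 members that differed between lines or within a pair are shown from RefSeq (GRCh38.p14), as the 250 bases before the annotated start, 5′ to 3′ on the gene's strand. They are LDHA at chr11:18394313-18394562 (+), LDHB at chr12:21657843-21658092 (−), BNIP3 at chr10:131981924-131982173 (−) and CA9 at chr9:35673678-35673927 (+). Capitals mark ACGTG, the core of the hypoxia response element, or its reverse complement CACGT, which overlap in the palindrome CACGTG.
LDHA: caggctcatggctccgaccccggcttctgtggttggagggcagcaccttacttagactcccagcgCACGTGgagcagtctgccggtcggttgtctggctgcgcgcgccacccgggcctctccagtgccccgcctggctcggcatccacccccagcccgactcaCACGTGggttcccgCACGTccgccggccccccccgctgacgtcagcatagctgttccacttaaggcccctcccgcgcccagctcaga
LDHB: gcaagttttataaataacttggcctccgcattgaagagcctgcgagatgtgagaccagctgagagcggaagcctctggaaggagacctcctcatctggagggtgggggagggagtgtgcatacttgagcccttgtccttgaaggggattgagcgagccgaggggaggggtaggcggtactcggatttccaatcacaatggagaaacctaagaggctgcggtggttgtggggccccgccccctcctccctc
BNIP3: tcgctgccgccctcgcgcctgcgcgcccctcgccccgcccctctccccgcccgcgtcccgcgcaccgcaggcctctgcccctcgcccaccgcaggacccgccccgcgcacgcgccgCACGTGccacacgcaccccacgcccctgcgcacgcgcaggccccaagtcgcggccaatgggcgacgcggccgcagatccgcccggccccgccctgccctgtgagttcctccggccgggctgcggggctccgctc
CA9: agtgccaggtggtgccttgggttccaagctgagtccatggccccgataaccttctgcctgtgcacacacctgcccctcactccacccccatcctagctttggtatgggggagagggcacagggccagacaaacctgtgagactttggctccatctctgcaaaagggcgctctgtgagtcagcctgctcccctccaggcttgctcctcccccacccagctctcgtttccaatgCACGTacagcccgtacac
LDHA, whose pairing with LDHB tracked the line, had the motif at 5 strand positions, counting both strands of 2 palindromes, and LDHB had 0. BNIP3 had 1 palindrome in a window with 41 CG dinucleotides, against a median of 22.5 over the members' windows and 19 over all windows of the table. These are reference sequences and do not differ between lines. CA9 had 1 position, next to the start. Over the 28 members with a window, 12 held the motif (42.9%), against 2915 of 13513 genes (21.6%). The motif itself contains CG, and these shares were not adjusted for CG content. A match is a description of letters and not of binding, and no methylation or binding data were analysed here.

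Members varied widely between lines. The median SD over lines of log2 CPM in cells was 1.07 for the members and 0.63 for the 10024 genes of at least 10 CPM. HT-29 cells had the highest level of 11 members and SW480 cells of 9, while COLO-201 cells had the lowest of 9 and LoVo cells of 7. In vesicles SW480 was highest for 16 members, and SNU-C1, with the smallest library and 44.4% background, was lowest for 9. The cell level of a member tracked its vesicle level over the 10 lines with a median Spearman's rho of 0.50 and Pearson's r of 0.57, and 16 of 32 had a rho of at least 0.5. The medians were 0.35 and 0.38 over all genes tested and 0.41 and 0.44 over genes of at least 10 CPM, of which 3909 of 10024 had a rho of at least 0.5. Among genes with an SD of at least 1 in cells, the median rho was 0.49 for 17 members and 0.59 for 2320 genes. These correlations are descriptions over 10 points that share library depth and background.

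HT-29 and WiDr, of 1 tumour origin, differed in these genes. In cells 27 of 32 members were higher in HT-29 and 15 were at least 2-fold higher, beside 4.01% of genes of at least 10 CPM. PFKFB4 was at 45.4 CPM in HT-29 and 3.02 in WiDr, a ratio of 15.0. ALDOC was at 157 and 16.3 CPM, CA9 at 542 and 67.6, and NDRG1 at 407 and 55.9. These 4, named because they had the largest ratios, include 2 of the 7 hypoxia-response genes. EGLN3 was at a ratio of 2.14, and VEGFA, BNIP3, ADM and ANKRD37 were at 1.59, 1.34, 1.16 and 1.03. LDHA was at 5935 and 2136 CPM, PGK1 at 3391 and 1242, and PDK1 at 155 and 47.3. HK1, PFKM, LDHB and SLC16A1 were not higher in HT-29, with ratios of 0.877, 0.825, 0.829 and 0.877, and SLC2A3 was at 0 and 0.14 CPM. With 1 library each there is no replicate check of this difference, and whether the 2 lines shared a medium is not given in the sources used here.

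The contrast between the 2 lines was only partly seen in vesicles. CA9 and ALDOC were higher in HT-29 vesicles by 3.27 and 5.88 times, whereas PFKFB4 (12.1 and 21.5 CPM), NDRG1 (90.1 and 112 CPM) and PDK1 (57.8 and 58.0 CPM) were not. In vesicles 17 of 32 members were at least 2-fold higher in HT-29, beside 30.3% of genes of at least 10 CPM. Background was 2.16% in HT-29 and 26.5% in WiDr vesicles, and its part in this contrast was not tested. HCT 116 and LS123, the other close pair, had 10 of 32 members higher in HCT 116 cells, with 2 at least 2-fold higher and 2 at least 2-fold lower, beside 10.4% and 11% of genes of at least 10 CPM.

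**Figure D4:**
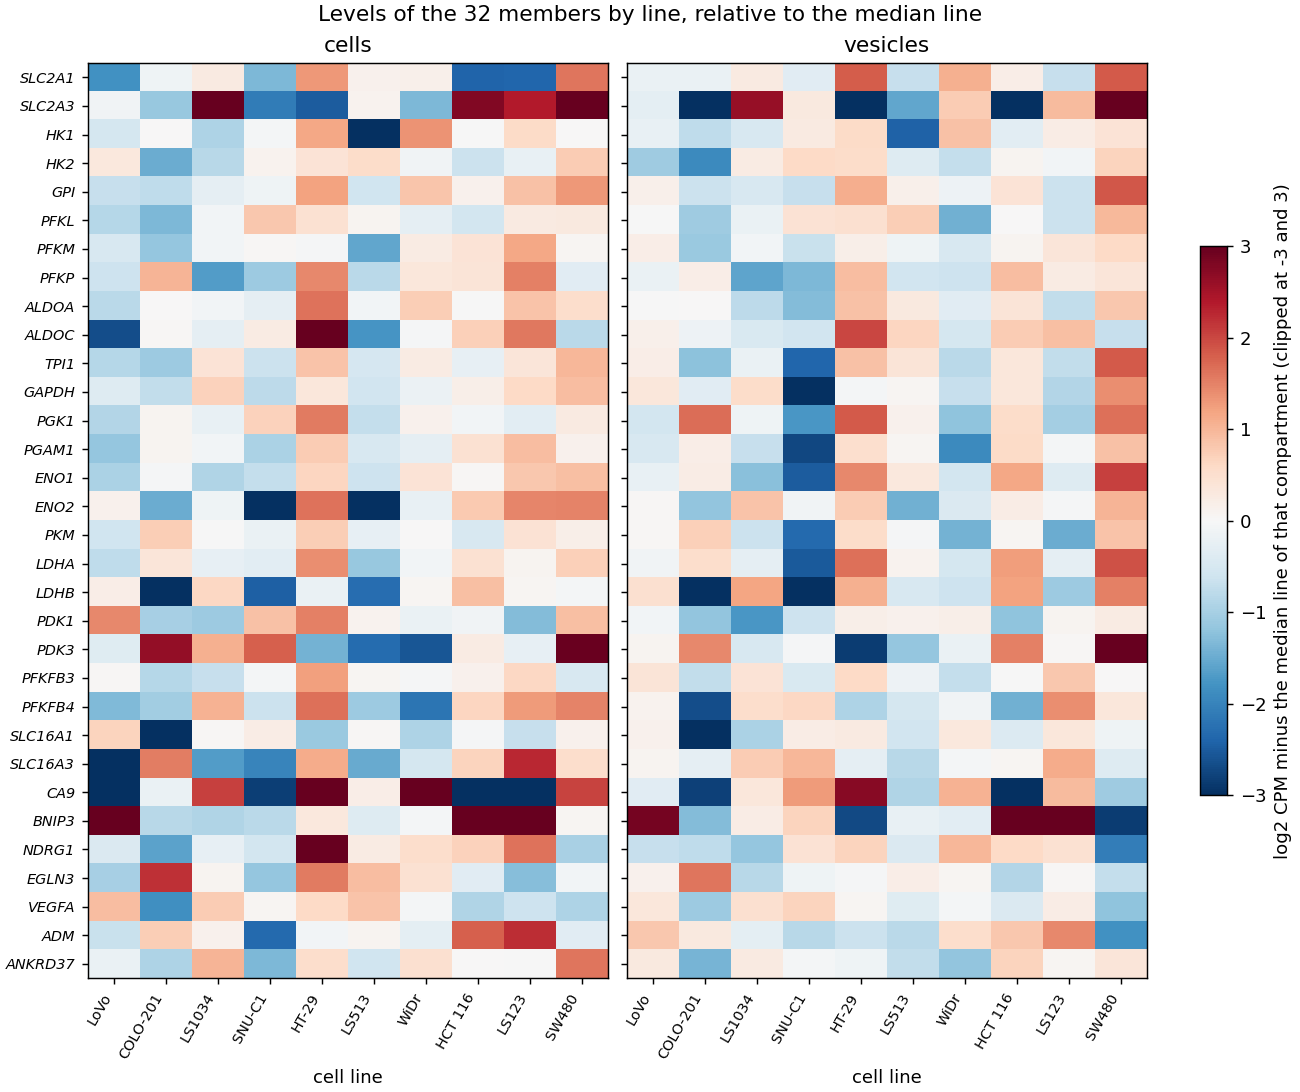
Log2 CPM of each of the 32 members (rows) in each line (columns) minus the median of the 10 lines of that compartment, for cells and vesicles, with colours clipped at 3. HT-29 is red for most members in cells, SW480 in vesicles, and SNU-C1 vesicles are blue for the abundant enzymes.

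Other genes of the same routes were read from the same fit. Of 37 further glycolysis and pyruvate genes in the table, 29 were tested, of which 11 fell and 7 rose (5 fell without LoVo, and 5 fell and 3 rose after background subtraction). These shares, 37.9% and 24.1%, stand beside 28.1% and 28.6% of all genes tested, and 42.2% and 5.29% of those of at least 10 CPM in cells. BSG, the chaperone that carries MCT1 and MCT4 to the membrane, was at -2.46 (SE 0.29, adjusted p = 8.30e-06), and G6PC3, an endoplasmic reticulum glucose phosphatase, at -1.43 (SE 0.18, adjusted p = 1.27e-05). Of the 7 that rose, only ENO3, the muscle enolase, reached the filter limit in every cell library. ENO3 lost its call after background subtraction (0.34, adjusted p = 0.798) and in the 5 lower-background lines (1.31, adjusted p = 0.069). PKLR had 18 counts over all cell libraries and 476 over all vesicle libraries, of which 313 were expected from background, and SLC2A5 had 36, 698 and 466. SLC2A5 kept its call after subtraction (7.9, adjusted p = 6.80e-04) and in the 5 lower-background lines (7.13, adjusted p = 0.00425). PKLR kept its call in those lines (8.2, adjusted p = 0.0138) and was not tested after subtraction.

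Of 30 further hypoxia-response genes 29 were tested, of which 11 fell (37.9%) and 3 rose (10.3%), again beside 28.1% and 28.6% of all genes tested and 42.2% and 5.29% of those of at least 10 CPM. ERO1A, an oxidase of the endoplasmic reticulum, was at -2.90 (SE 0.24, adjusted p = 1.04e-06) and P4HA1, a collagen prolyl hydroxylase of the same compartment, at -2.30 (SE 0.27, adjusted p = 8.83e-06). ANGPTL4 (2.92, adjusted p = 0.00439) and LOX (2.33, adjusted p = 0.00662) rose together with LOXL2, and none of the 3 passed after background subtraction or in the 5 lower-background lines. After subtraction 9 of the 29 were lower (31.0%, beside 19.0% of all genes). Of 12 oxygen-sensing genes 7 fell (58.3%, beside 28.1% of all genes tested and 42.2% of those of at least 10 CPM). These were HIF1A at -1.50, EPAS1 at -1.56, ARNT, VHL, EGLN1, HIF1AN and EP300. Another 2 rose, EGLN2 at 0.85 (adjusted p = 0.0253) and HIF3A at 6.31 (adjusted p = 8.34e-06). The EGLN2 call was lost after background subtraction (0.66, adjusted p = 0.21) and in the 5 lower-background lines (0.53, adjusted p = 0.237). The HIF3A call was kept in both (6.07, adjusted p = 0.00248, and 5.69, adjusted p = 0.00257). The HIF3A mean in cells was 0.25 CPM, and its 1073 vesicle counts compare with 709 expected from background. The lists' medians were -0.42, -0.40 and -0.99, beside 0.01 for all genes tested and -0.53 for genes of at least 10 CPM in cells.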

How the data were processed

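The authors' deposited table holds whole-number read counts by gene symbol, with no sign of normalization in the values. STAR, featureCounts and hg19 are named per the submitters' processing notes, while versions, annotation and strand setting are not given in the sources used here. Each of the 20 count columns matched 1 library title, and 0 value columns were unmapped. Overlapping genes cannot be told apart without strand, and exons of 20 members overlap another gene (10 a protein-coding one, in GENCODE 29).

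Vesicles were compared with cells by edgeR 4.0.16 (R 4.3.3, limma 3.58.1), quasi-likelihood test, TMM scaling, filterByExpr and cell line as a block, with Benjamini-Hochberg adjustment over all genes tested at 0.05. CPM values of the members and the limit of 10 CPM are TMM scaled, and log2 values have a prior count of 2. The filter limit, the floor, the marker sums and the HIF3A mean are scaled by library size alone. TMM factors were 0.77 to 0.963 in cells and 0.828 to 1.88 in vesicles. Same-numbered libraries pair because the labels give them the same line, and their deviations correlated at 0.0846 to 0.546. Background was fitted by quasi-Poisson regression over 2077 silent genes on exonic length and GC content from GENCODE 29 (matched for 17104 genes, 99.9%). Pairs were compared by exact two-sided sign-flip permutation tests over lines, adjusted over 10 pairs. In simulated data for this comparison over 13486 genes, 41.2% of 85 genes changed by 1 on the log2 scale and 97.8% of 91 changed by 2 were recovered, and 0.015% of unchanged genes were called. Both simulated compartments were drawn from cell means with a fixed dispersion, few changed genes and no vesicle background. These rates therefore do not measure the error of the calls in the real libraries. Alternatives included DESeq2 1.42.0, 3 scalings, 3 filters, no block and omitted lines. The rule for named genes was all 32 members, the 2 smallest adjusted p of each further list, and genes needed to explain a count. The members and lists were chosen with earlier results of these data known.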

Additional observations from a re-analysis of the deposited data

Results flagged for a closer look

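Each member was examined in the 10 cell and the 10 vesicle libraries, 64 groups in all, for a highest or lowest library whose gap to the next, relative to the group's range, exceeded Dixon's 95% critical value. Chance alone flags about 1 in 20 groups, and 8 were found. COLO-201 accounted for 5 of them on the log2 CPM scale: LDHB was lowest there in cells (-0.89) and in vesicles (-1.61), SLC16A1 was lowest in cells (3.23) and in vesicles (0.06), and EGLN3 was highest in vesicles (6.39). LS513 was lowest for HK1 in cells (0.51) and in vesicles (3.10). GAPDH was lowest in SNU-C1 vesicles (8.82), the library with 1.75 M counts and 44.4% estimated background. For LDHB, SLC16A1 and HK1 the same line stood apart in both of its libraries.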

How the results depend on the processing

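Single-gene values under alternatives numbered 1017, of which 864 stayed on their side of the threshold (values not called could change sign), 133 fell short of it, 20 newly passed it and 0 reversed while called. Counts moved more. Over all genes, 4322 were called higher and 4254 lower. The count higher was 6957 with upper-quartile scaling, 2365 among genes at the filter limit in every cell library, 2881 in the 5 lower-background lines and 2026 after background subtraction. The count lower was 2802 with DESeq2 size factors, 2465 by library size, 1759 by upper quartile, 2572 with at least 1 CPM in 10 libraries, 2096 among genes at the limit in every cell library, 2816 in the 5 lines and 2454 after subtraction, and 2383 (without LoVo) to 4277 when 1 line was left out. The share of calls that were higher was 50.4% with TMM and 65.5%, 69.2% and 79.8% with the other scalings. For the members, 0 higher and 15 lower became 1 and 8 with DESeq2 size factors, 2 and 8 by library size, 4 and 3 by upper quartile, 3 and 8 with DESeq2's Wald test, 1 and 5 with at least 1 CPM in 10 libraries, 1 and 4 among genes at the limit in every cell library, 1 and 7 in the 5 lines, and 1 and 5 after subtraction. They were 0 and 9 without WiDr and LS123, and leaving out 1 line gave 0 to 1 higher and 5 (without LoVo) to 15 lower. Without the replicate block, which pairs the libraries of a line, 9 members were lower. The share of all genes that were lower moved too, from 28.1% to 20.8% with DESeq2's test and 18.7% with at least 1 CPM in 10 libraries. It was 20.8% in the fit of genes at the limit in every cell library alone, 25.2% without WiDr and LS123 and 22.7% without the block. For the further glycolysis genes, 7 higher became 15 with no filter, 4 with at least 1 CPM in 10 libraries, 3 among genes at the limit in every cell library and 3 after subtraction; 11 lower became 7 with DESeq2 size factors, library size, DESeq2's test or no replicate block, 5 by upper quartile, with either stricter filter or after subtraction, 4 in the 5 lines, and 5 (without LoVo) to 12 when 1 line was left out. For the further hypoxia genes, 3 higher became 6 by upper quartile, 7 with DESeq2's test, 5 with at least 1 CPM in 10 libraries and 0 in the 5 lines or after subtraction (edgeR), and 11 lower became 6 by upper quartile. Of the oxygen-sensing genes, 2 higher became 1 among genes at the limit in every cell library, without the replicate block, in the 5 lines and after subtraction, and 1 to 2 when 1 line was left out (1 without LS1034 or SNU-C1). The SLC2A1/SLC2A3 difference of -5.13 ranged from -5.94 to -4.53 when 1 line was left out, and lost its call also without WiDr and LS123 (-4.58), in the 5 lines (-3.81, where 0.0625 is the smallest p possible), after subtraction (-3.58) and without the replicate block (-5.13). The SLC16A3/SLC16A1 difference lost its call without WiDr and LS123 (3.49), in the 5 lines (1.88), after subtraction (2.78) and without the replicate block (3.05). The causes of these shifts were not tested. Depth limits vesicle values below about 1.72 CPM in the smallest library.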
